A study of Mus musculus with 16 samples.

Results

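Mitral cells that carried Kir2.1 were compared with control mitral cells at postnatal day 3 (P3), in 4 pools against 4 pools. These 8 pools were selected by their labels alone and made up 8 of the 16 samples of the series; the other 8 hold the same 2 groups at postnatal day 6 (P6). All cells came from the olfactory bulb of ICR mice, in which plasmids had been introduced by electroporation in utero at embryonic day 12. Control cells had received pCAG-EYFP alone, and Kir2.1 cells had received pCAG-EYFP together with pCAG-Kir2.1, so that EYFP and the electroporation were common to both groups. Both plasmids use the CAG promoter, which is active in nearly all cell types and not in mitral cells alone. Single fluorescent cells were picked by hand from dissociated tissue, their cDNA was amplified by 30 cycles of PCR, and cells positive for EYFP and Pcdh21 were kept. The cDNA of 10 cells was combined for each 1-colour array. The number of animals behind a pool was not given, so the p-values below speak of differences from pool to pool, which may be technical in part.

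Mitral cells are the glutamatergic output neurons of the olfactory bulb. They receive input from olfactory sensory neurons in the glomeruli and send axons to the olfactory cortex, and during the first postnatal week each cell prunes its several early dendrites to a single primary dendrite. Kir2.1 is an inward rectifier potassium channel that holds the membrane near the potassium equilibrium potential, and its overexpression is a common way to lower a neuron's excitability. The series title calls these cells activity-silenced, and the comparison asks which transcripts differ in them at P3.

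Levels are log2 processed signals minus the array's 75th percentile over the 12103 probes well above background on all 16 arrays. They are given as the mean ± SD over 4 pools, and a difference is the mean of the Kir2.1 pools minus that of the control pools. A level of 0 is thus a bright probe, and probes at background lay near -9. The signal was well above background, by the scanner software's own call, for 35.1% to 39.4% of the probes in each pool. Kir2.1 pool 3 stood apart with the 39.4%, where the other 7 pools lay between 35.1% and 36.4%, and its probes at background had the highest median, at -8.85 against -9.57 to -9.04. The counts over all named genes, of ribosomal protein genes and of called genes are therefore given with and without it. Most other counts of pools apart are given with it only, and some of them grow without it. All 8 arrays lay on one slide, with the control pools in row 1 and the Kir2.1 pools in row 2, so the row and the treatment cannot be told apart. Across the 21070 features tested, the correlation was 0.871 to 0.881 between control pools, 0.844 to 0.851 between Kir2.1 pools and 0.845 to 0.862 between a control and a Kir2.1 pool. All 4 Kir2.1 pools correlated best with a control pool. In a pool of 10 cells, fewer cells with a transcript and less of it per cell cannot be told apart.

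The labelled cell type was checked against its markers. Cdhr1, the gene of Pcdh21 and the transcript used to select the cells, was bright in each pool, at 3.22, 3.78, 2.99 and 3.26 in the control pools and 2.61, 3.28, 2.84 and 2.25 in the Kir2.1 pools. Of 20 markers of mitral and tufted cells, 15 were well above background in all 8 pools, among them the transcription factors Tbx21, Tbr1 and Eomes and the vesicular glutamate transporters Slc17a7 and Slc17a6. Lhx5 was above background in none. Of the 18 tested, 3 had all Kir2.1 pools above all control pools (16.7%), Reln, Eomes (0.51) and the guidance receptor Nrp1 (1.17), and 2 had all below (11.1%), Ntng1 and Lbhd2 (-3.75); over all named genes these shares were 2.68% and 3.22%. Kcnj2, the mouse gene of Kir2.1, had 1 probe, which gave no signal well above background in any pool of either age (0 of 16). It is unknown whether the probe matches the transgene, and the labels cannot be checked by it.

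Scg2 was the one named gene that passed the threshold of an adjusted p of 0.05 with all 16 arrays in the fit (limma, Benjamini-Hochberg adjustment over all features), 1 of 12035 named genes or 0.00831%; with the probes that carry no gene name 2 of 21070 features passed, or 0.00949%. Its product, secretogranin II, is stored in dense-core vesicles and is the precursor of the neuropeptide secretoneurin. It measured -2.52, -1.71, -3.07 and -2.25 in the control pools and -6.82, -7.09, -8.82 and -9.25 in the Kir2.1 pools. The groups were far apart, and 2 of the 4 Kir2.1 pools had no signal well above background, whereas all 4 control pools had one. Scg2 fell by 5.61 on the log2 scale (SE 0.64, limma adjusted p = 0.0127), from -2.39 ± 0.57 to -8.0 ± 1.22 (n = 4 pools each). The call was lost without control pool 1 (limma adjusted p = 0.0707) or 2 (0.0763) and without Kir2.1 pool 3 (0.0854) or 4 (0.0587). With normexp background correction, which adds an offset and so draws dim values together, Scg2 differed by -2.29 (limma adjusted p = 0.0188), so the size of the difference depends on the background correction. The same held for other dim genes: over 68 of the genes described here, 34 were not above background in all 8 pools, and all 34 had a difference more than 1.5 times smaller with normexp (median ratio 0.26), against 7 of the 34 that were above background throughout (median ratio 0.94).

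Scg2 belongs to the granins, acidic proteins that are packed with prohormones into dense-core vesicles and cut there by processing enzymes. A list of granins and dense-core vesicle genes was chosen with earlier results of these data known and holds Scg2 itself, so its shares are not a test. Of 18 tested genes of this list, 4 had all Kir2.1 pools below all control pools (22.2%, against 3.22% of all named genes). None had all of them above (0, against 2.68%). Chgb, which encodes chromogranin B, stood at 0.23, 2.00, 0.61 and 0.81 in control pools and -1.34, -0.92, -0.40 and -0.61 in Kir2.1 pools. Its difference was -1.73 (SE 0.43, limma adjusted p = 0.366), so it did not pass. Cpe, the carboxypeptidase that trims prohormone fragments, was bright with tight pools, with controls between 2.46 and 2.55 and Kir2.1 pools between 1.59 and 1.96. Its difference was -0.72 (limma adjusted p = 0.524), and of its 2 other tested probes 1 had the same sign. Pam, the enzyme that amidates neuropeptides, was the fourth (-2.69, limma adjusted p = 0.684), a gene named here after its values were seen. The other granins did not follow as a group: Chga differed by -0.44, Scg3 by -0.06, Scg5 by 0.04 and Vgf by 0.73, each with overlapping pools. The median difference of the list was -0.07, close to the -0.10 of all named genes.

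**Figure D1:**
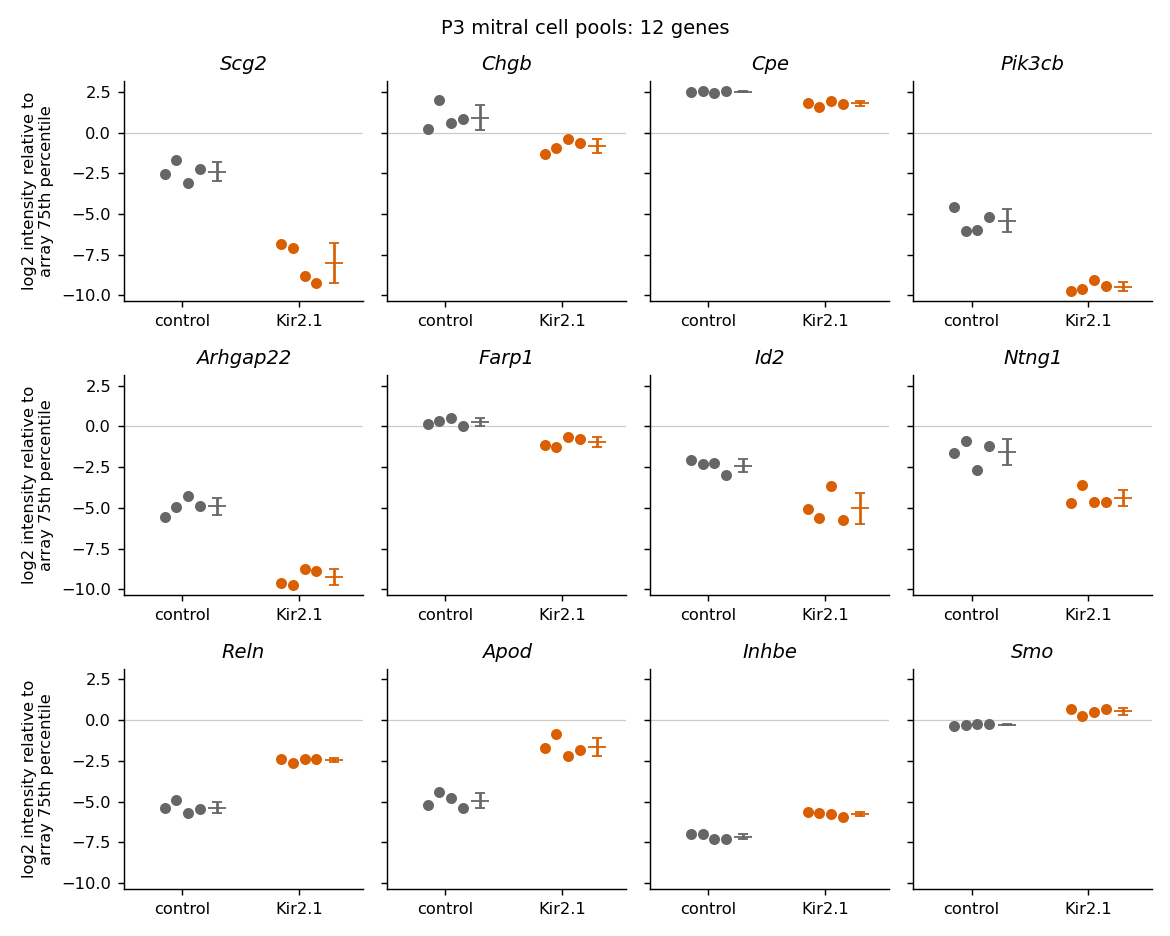
Log2 intensity of 12 genes relative to the 75th percentile of each array, in the 4 control (grey) and 4 Kir2.1 (orange) pools at P3; each dot is a pool and the bars beside the dots are the mean ± SD. No pool of one group overlaps the other group in any of the 12 panels. For Scg2 2 of the 4 Kir2.1 pools, and for Pik3cb and Arhgap22 all 4, were not above background. Inhbe was above background in only 2 of the 4 control pools.

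The promoters of 2 of these 4 genes hold the palindromic cAMP response element, the letters TGACGTCA, which bind CREB, a transcription factor activated by calcium and cAMP. The stretches that hold it are shown because Scg2 is the called gene and Chgb its nearest relative in this comparison; Pcsk1, a prohormone convertase of the same list whose pools overlapped, is shown for contrast. Sequences and coordinates are from RefSeq on GRCm38.p6, read 5′ to 3′ along the gene's strand and upstream of its start, with the element in capitals.
Scg2 (chr1:79440027-79440154, minus strand): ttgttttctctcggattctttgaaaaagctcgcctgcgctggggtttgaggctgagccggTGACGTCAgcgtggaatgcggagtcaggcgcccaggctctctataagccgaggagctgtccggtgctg
Chgb (chr2:132781510-132781637, plus strand): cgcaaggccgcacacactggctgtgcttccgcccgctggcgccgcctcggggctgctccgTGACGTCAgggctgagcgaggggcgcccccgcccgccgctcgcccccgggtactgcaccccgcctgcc
Pcsk1 (chr13:75089719-75089846, plus strand): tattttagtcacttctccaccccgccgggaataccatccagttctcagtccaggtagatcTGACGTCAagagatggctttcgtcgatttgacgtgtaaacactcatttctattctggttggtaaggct
The element begins 68 bases upstream of the start in Scg2, 72 in Chgb and 78 in Pcsk1. Over windows from 250 bases before to 50 bases after a start, searched on both strands, it was found for 3 of the 15 granin and vesicle genes with a promoter in the table and for 3.52% of the 9612 such genes among all named genes tested. Among genes with all Kir2.1 pools lower it was found in 15 of 316 (4.75%), and among genes with all of them higher in 10 of 251 (3.98%). The presence of the letters is a description of these windows and not of a factor's binding.

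With the 8 P3 arrays fitted alone, 8 named genes passed the threshold (0.0665% of 12035), Scg2 included (limma adjusted p = 0.036). The P6 pools of the joint fit varied more from pool to pool, with a root mean square SD of 1.51 (control) and 1.52 (Kir2.1) against 1.18 and 1.33 at P3. The 7 further genes are thus results of the P3 arrays alone. Without Kir2.1 pool 3, limma on these arrays called 9 named genes, of which 4 were among the 8 (Plagl2, Reln, Arhgap22 and Pik3cb). The other 4 then missed the threshold, with limma adjusted p = 0.0969 for Scg2, 0.061 for Apod, 0.0518 for Gzmm and 0.0868 for Lor. With the replicate number as a block limma called 0, and 998 named genes had an unadjusted p under 0.05.

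Of the 7, Reln and Apod were higher with Kir2.1. Reln encodes reelin, a secreted glycoprotein of the extracellular matrix that is made by mitral cells and acts through the receptors Vldlr and Lrp8. It measured -5.42, -4.93, -5.68 and -5.42 in control pools and -2.40, -2.64, -2.36 and -2.37 in Kir2.1 pools, and was well above background in all 8. These were 2 tight and separate clusters, with a rise of 2.92 on the log2 scale (limma on the P3 arrays, adjusted p = 0.0153; with all 16 arrays 0.366). With normexp the difference of Reln was 1.66. Vldlr itself was higher in all 4 Kir2.1 pools (1.15, limma adjusted p = 0.649), whereas Dab1, the adaptor inside the cell, differed by -0.04. Both were looked at after the values of Reln were seen, and Lrp8 is not described here. Apod, a lipocalin that carries lipids, measured -5.21, -4.38, -4.77 and -5.38 in control pools and -1.72, -0.83, -2.19 and -1.81 in Kir2.1 pools. It rose by 3.30 (limma on the P3 arrays, adjusted p = 0.036; with all 16 arrays 0.366).

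The other 5 were detected in all 4 control pools and in no Kir2.1 pool. Their size is therefore given as an at-least fold, from the control mean against each Kir2.1 array's detection limit. This bound takes the control mean as exact and holds for the main background subtraction only. With normexp the log2 differences were -0.80 for Pik3cb, -0.97 for Arhgap22, -0.98 for Plagl2, -1.55 for Gzmm and -0.97 for Lor. Each of these is smaller than the fold given below. Pik3cb, the beta catalytic subunit of class I phosphoinositide 3-kinase, measured -4.54, -6.01, -5.98 and -5.17 in control pools and lay between -9.71 and -9.05 in Kir2.1 pools. It was at least 3.78-fold lower (limma on the P3 arrays, adjusted p = 0.0175; with all 16 arrays 0.0586). Arhgap22, a GTPase activator that turns off Rac, was at -5.56, -4.97, -4.26 and -4.86 in control pools and between -9.73 and -8.76 in Kir2.1 pools. The difference was at least 5.4-fold (limma on the P3 arrays, adjusted p = 0.0175; with all 16 arrays 0.147). Plagl2, a zinc finger transcription factor, was at least 6.69-fold lower (limma on the P3 arrays, adjusted p = 0.00875; with all 16 arrays 0.567). Its control pools lay between -4.99 and -4.16 and its Kir2.1 pools between -9.47 and -8.65. Gzmm, annotated as a granule serine protease of lymphocytes, was at least 11.6-fold lower, and Lor, a protein of the cornified envelope of skin, at least 6.88-fold lower (limma with all 16 arrays, adjusted p = 0.366 and 0.596). Both are transcripts not usually ascribed to neurons, and each rests on 1 probe.

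P6 offered pools and controls that share no array with P3, but its p-values came from the fit of all 16 arrays. The variance in that fit includes the P3 arrays by which the 8 genes were picked, so the P6 test is not a separate check. Of the 8 genes, 7 had the same sign at P6, a count for which no share over all named genes was taken. With limma on all 16 arrays 4 passed at P6 with the same sign, where 1.8% of named genes passed. These were Scg2 (-3.03), Pik3cb (-4.52), Arhgap22 (-5.21) and Reln (3.89). Plagl2 (-0.29), Gzmm (-1.73) and Apod (1.10) did not pass at P6, and Lor had the opposite sign (0.82). None of the 8 had a P6 difference that departed from the P3 difference past the threshold in the interaction test, where Scg2 gave 2.58 (limma adjusted p = 0.316).

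Across all named genes the 4 pools of one group lay wholly on one side of the other's in 709 (5.89%), of which 322 were higher with Kir2.1 (2.68%) and 387 lower (3.22%). Without Kir2.1 pool 3, which asks for 4 against 3 pools, the counts were 505 higher (4.2%) and 750 lower (6.23%). At an unadjusted p under 0.05 there were 730 genes (6.07%). Pools of bright genes varied little and those of dim genes much, with a median SD between pools of 0.36 in the brightest of 4 equal classes of features and 1.52 in the dimmest.

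**Figure D2:**
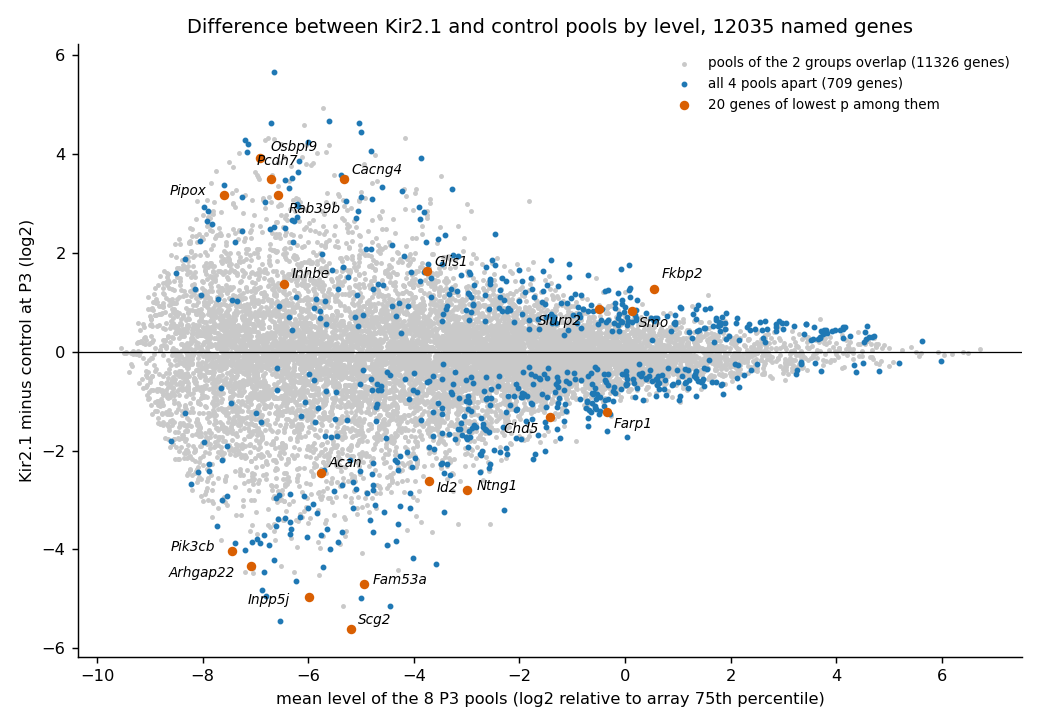
Difference between Kir2.1 and control pools at P3 (log2) against the mean level of the 8 pools, for 12035 named genes; blue dots are the 709 genes whose groups do not overlap and orange dots the 10 higher and 10 lower genes of lowest p among them. The cloud is wide at low levels and narrow at high levels, and bright genes such as Smo (0.82) and Farp1 (-1.22) stand outside it with small differences.

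The 10 lower genes of lowest p had various roles. Inpp5j, a phosphatase of phosphoinositides, was at -2.91, -4.54, -4.17 and -2.43 in control pools and at -9.86, -9.79, -7.85 and -6.41 in Kir2.1 pools, of which 1 was above background. Its difference was -4.96 (limma adjusted p = 0.154), and -1.77 with normexp (0.762). Ntng1, netrin-G1, a membrane-anchored adhesion protein and a marker on the mitral cell list, was at -1.63, -0.87, -2.69 and -1.18 in control pools and -4.69, -3.62, -4.63 and -4.62 in Kir2.1 pools (-2.80, limma adjusted p = 0.22). Both groups of Ntng1 were well above background throughout. Id2, an inhibitor of basic helix-loop-helix factors and a textbook target of BMP signalling, was at -2.07 to -2.96 in control pools and at -3.67 to -5.75 in Kir2.1 pools (-2.62, limma adjusted p = 0.206). Acan, the perineuronal net proteoglycan aggrecan, differed by -2.45 (limma adjusted p = 0.248) and was above background in 4 control and 2 Kir2.1 pools. Chd5, a neuronal chromatin remodeller, differed by -1.32 (limma adjusted p = 0.192) and was bright in all 8 pools. Fam53a differed by -4.70 (limma adjusted p = 0.135), with 2 of 4 Kir2.1 pools above background and a wide spread among them, from -9.54 to -5.36; with normexp it differed by -2.27.

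Several of the 10 higher genes of lowest p were dim in control pools. Inhbe, the beta E subunit of activin, had the lowest p of them, with -7.00, -7.02, -7.27 and -7.29 in control pools and -5.63, -5.70, -5.78 and -5.95 in Kir2.1 pools. Its difference was small beside those of other dim genes but its pools were tight (1.38, limma adjusted p = 0.0694). Inhbe was above background in 2 control and 4 Kir2.1 pools, and with normexp it differed by only 0.23. Rab39b, a neuronal Rab GTPase of vesicle traffic, was above background in 2 control and 4 Kir2.1 pools (3.18, limma adjusted p = 0.154), and at P6 it rose by 2.79 (limma adjusted p = 0.0449). Osbpl9, a lipid transfer protein, was at background in 3 control pools and at -6.75 in control pool 4, just under the lowest Kir2.1 pool at -6.58 (3.91, limma adjusted p = 0.154). Cacng4, an auxiliary subunit of AMPA receptors, was at -2.11 to -5.28 in Kir2.1 pools and at -5.59 to -9.50 in control pools (3.48, limma adjusted p = 0.296). Pipox, an amino acid oxidase of peroxisomes, was detected in no control pool and in 3 of 4 Kir2.1 pools. This sets it at least 2.53-fold higher before normexp (limma adjusted p = 0.231), with which it differed by only 0.42. Pcdh7, a protocadherin, gave 3.49 (limma adjusted p = 0.214) with its brightest probe, and its 2 other tested probes had the opposite sign. The value of Pcdh7 is therefore that of a probe and not of the gene.

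Bright genes allow small differences to be seen. Of the 7554 named genes well above background in all 8 pools, 256 were higher in every Kir2.1 pool (3.39%) and 297 lower (3.93%), and 413 had an unadjusted p under 0.05 (5.47%). Smo, the transducer of hedgehog signals, was at -0.33, -0.26, -0.25 and -0.25 in control pools and 0.69, 0.27, 0.51 and 0.71 in Kir2.1 pools (0.82, limma adjusted p = 0.26). Slurp2, a small secreted Ly6 protein, had tight pools, with -0.93 ± 0.13 against -0.06 ± 0.04 (limma adjusted p = 0.248). Fkbp2, a prolyl isomerase of the endoplasmic reticulum, differed by 1.26, Glis1, a zinc finger transcription factor, by 1.62, and Usp22, a deubiquitinase of the SAGA complex, by 1.34. On the lower side stood Farp1, Chd5, Id2, Ntng1 and Sparcl1, a secreted matrix protein that differed by -1.19. Each of these 10 genes was apart in all pools, and none of the 10 passed with all arrays or with the P3 arrays alone.

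Some genes switched between detected and not detected. No probe of a gene was above background in any Kir2.1 pool while the tested probe was so in all 4 control pools for 15 genes (0.125%), and the reverse held for 5 (0.0415%). Beside Pik3cb, Arhgap22 and Gzmm, the genes of lowest p detected in control cells were Ankrd34c, at least 5.18-fold lower with Kir2.1, and Trcg1, at least 2.23-fold lower. The 5 detected in Kir2.1 cells only were Abcg2, Pcif1, Wscd1, Col3a1 and Cog8. Abcg2, an ABC transporter at the cell surface, was at -9.54, -9.62, -9.58 and -9.21 in control pools and -2.74, -6.18, -3.98 and -2.40 in Kir2.1 pools, at least 11.6-fold higher (limma adjusted p = 0.48). Wscd1 was at least 8.34-fold higher and Col3a1, a fibrillar collagen, at least 7.81-fold higher. Cog8, a Golgi tethering subunit, was at least 4.11-fold higher and Pcif1, a methyltransferase of mRNA caps, at least 3.64-fold higher. None of the 5 passed the threshold with limma, with all 16 arrays or with the P3 arrays alone. With normexp their log2 differences were smaller than these folds, from 0.53 for Pcif1 to 1.63 for Abcg2. Those of Ankrd34c and Trcg1 were then -0.98 and -0.29.

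Farp1, an exchange factor of Rac in dendrites, was among the bright lower genes, with 0.15, 0.35, 0.54 and 0.01 in control pools and -1.17, -1.28, -0.65 and -0.75 in Kir2.1 pools. The groups did not overlap (-1.22, limma adjusted p = 0.154), and its other probe had the same sign.

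Among 24 genes of the phosphoinositide 3-kinase and AKT pathway, 2 were lower in all Kir2.1 pools (8.33%, against 3.22% of all named genes) and 0 higher. Pik3cb was one and Rictor, a subunit of the mTOR complex that phosphorylates AKT, was the other, named to complete the count (-3.45, limma adjusted p = 0.745). Pik3ca, the alpha catalytic subunit, differed by -0.97 with overlapping pools. Of 33 Rab GTPases 1 was higher, Rab39b (3.03%), and 2 were lower (6.06%), near the 2.68% and 3.22% of all named genes.

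**Figure D3:**
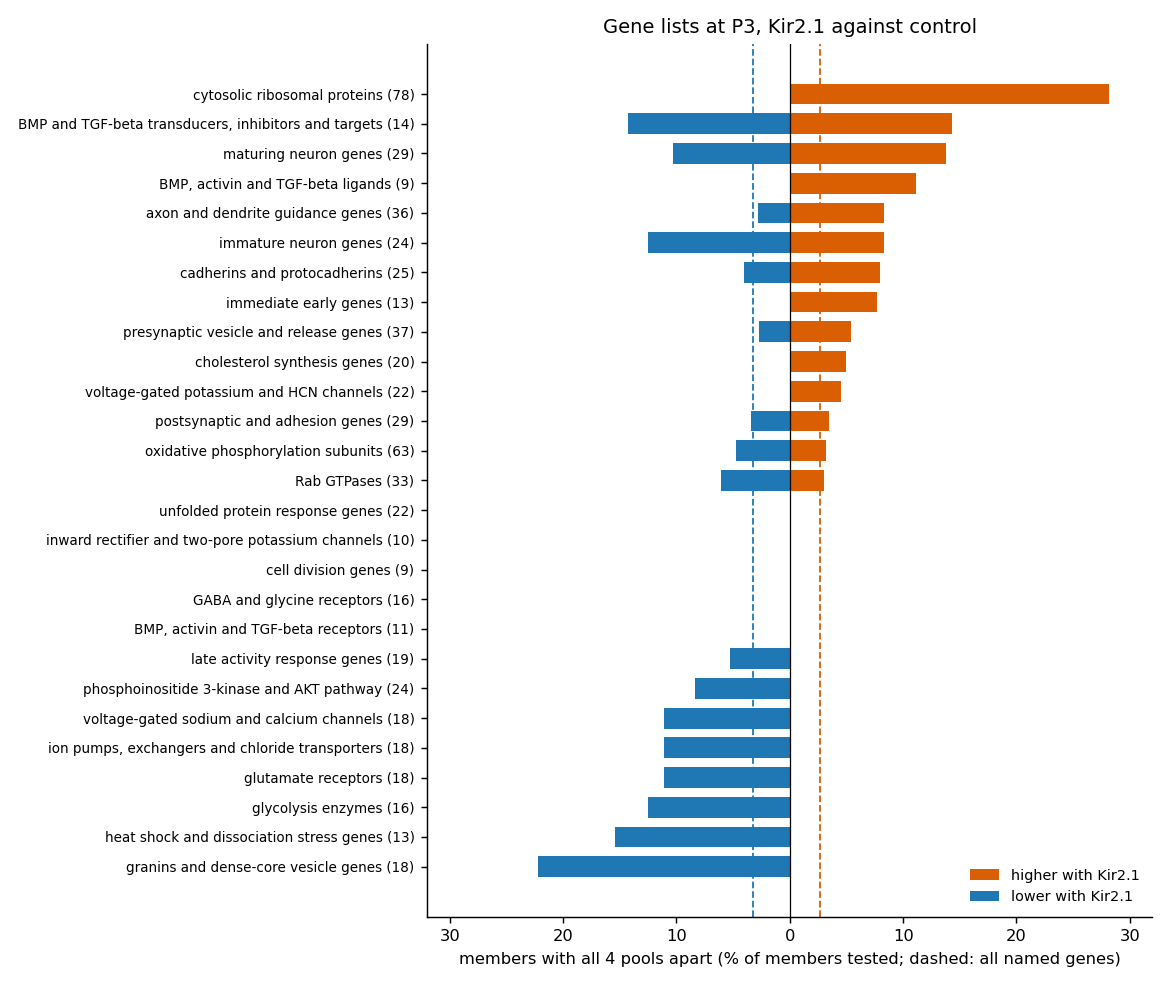
Share of the tested members of each of the gene lists shown (number tested in brackets) whose 4 Kir2.1 pools all lay above (orange, right) or below (blue, left) the 4 control pools at P3; dashed lines give the shares over all named genes, 2.68% and 3.22%. Cytosolic ribosomal proteins have, of the lists shown, the longest bar on the right (28.2%) and granins and dense-core vesicle genes the longest on the left (22.2%). The lists were chosen with earlier results of these data known, so the bars are not a test.

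Ribosomal protein genes differed little and mostly in one direction. Of the 78 tested cytosolic ribosomal protein genes, which encode the subunits that make up the ribosome, 22 had all Kir2.1 pools above all control pools (28.2%) and 0 had all below. Since 77 of the 78 were detected in all 8 pools, the matching background is that of such genes, 3.39% and 3.93%. Without Kir2.1 pool 3 there were 24 higher and 3 lower, counts that can only stay or grow with fewer pools. The differences were small, with a median of 0.20 and 67 of 78 positive (85.9%, against 44.4% of all named genes), and the median was positive under each of 3 other scalings, from 0.13 to 0.24. The mean level of the list overlapped between the groups, at 3.31 to 3.57 in control pools and 3.52 to 3.66 in Kir2.1 pools. Its members were not shown to vary independently, so these counts are not a test. Rpl5 had the lowest p, at 1.75, 1.26, 1.37 and 1.6 in control pools and 2.11, 2.29, 1.91 and 2.47 in Kir2.1 pools (0.70, limma adjusted p = 0.537). Rps15 followed, with 2.58 ± 0.09 against 3.15 ± 0.26 (limma adjusted p = 0.642). The probe that stood for Rpl21 went far the other way, at -3.34, -3.70, -3.6 and -9.22 in control pools and at background in all Kir2.1 pools. With limma 0 of the 78 passed, and 6 had an unadjusted p under 0.05. Ribosomal protein genes have many processed pseudogenes, so a probe can read copies of near-identical sequence.

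Other sets of highly expressed genes stayed near or below the centre, where 55.63% of all named genes had a negative difference. Of 63 oxidative phosphorylation subunits, 2 were higher (3.17%) and 3 lower (4.76%) in all pools, with a median of -0.08. Over genes detected in all 8 pools these shares were 3.39% and 3.93%. Without Kir2.1 pool 3, 4 subunits were higher (6.35%) and 8 lower (12.7%), against 4.2% and 6.23% of all named genes. Among 16 glycolysis enzymes, 12 differences were negative and 2 genes were lower in all pools (12.5%, against 3.93% of genes detected in all 8 pools), among them Aldoa, the muscle-type aldolase that neurons also use (1.85 ± 0.28 against 1.15 ± 0.12, limma adjusted p = 0.586). Pgk1, the kinase that makes ATP from bisphosphoglycerate, differed by -0.50 with overlapping pools. Of 13 tested heat shock and dissociation stress genes, 11 were negative (84.6%) with a median of -0.28. In all pools 2 were lower (15.4%, against 3.22% of all named genes) and 0 higher (against 2.68%). Hsp90ab1, the constitutive cytosolic HSP90, was among the lower (-0.40). With limma 0 members of these 3 lists passed; 1 oxidative phosphorylation, 2 glycolysis and 1 heat shock gene had an unadjusted p under 0.05.

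**Figure D4:**
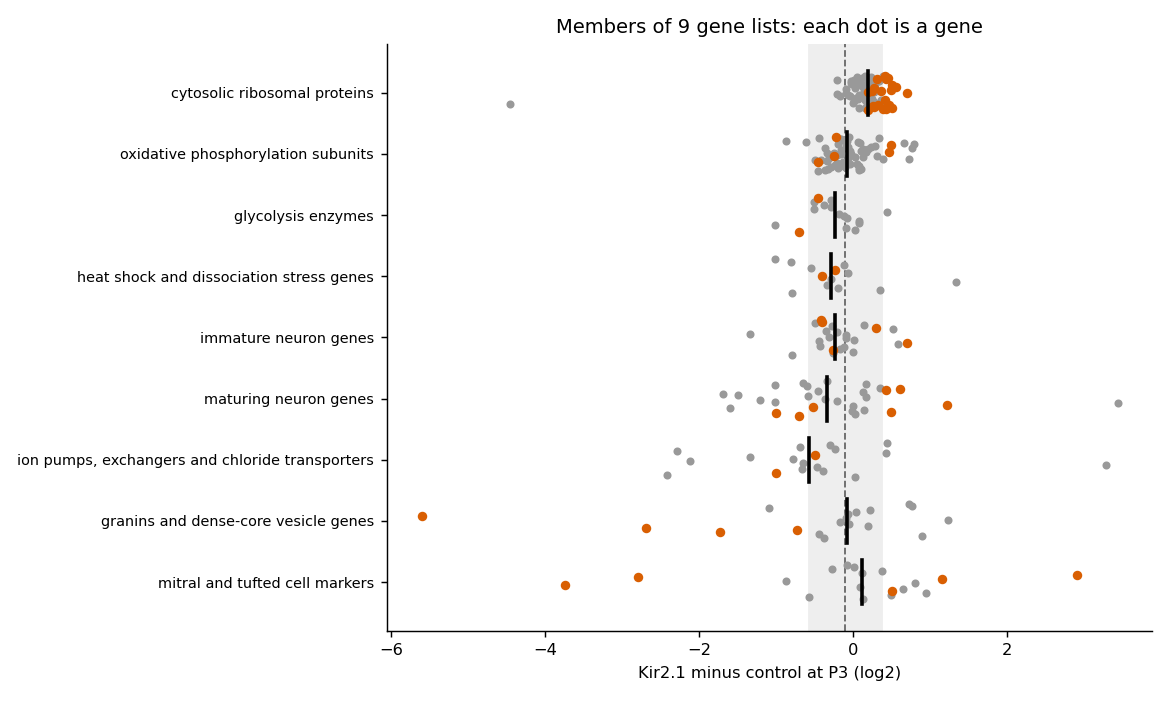
Difference between Kir2.1 and control pools at P3 for each tested member of 9 gene lists; orange dots are genes whose groups do not overlap, black bars are list medians, the dashed line is the median of all named genes (-0.10) and the grey band their interquartile range. Ribosomal protein genes form a tight cluster right of the line with 1 far outlier, Rpl21, while the lower members of the granin list spread to the left.

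Genes that mark neuronal maturation were divided. Of 24 tested genes of immature neurons, 2 were higher (8.33%) and 3 lower (12.5%) in all pools. Of 29 genes of maturing neurons 4 were higher (13.8%) and 3 lower (10.3%). Over all named genes these shares were 2.68% and 3.22%. Tubb2b and Tuba1a, tubulins of growing neurites, were bright and tight, with 4.58 ± 0.13 against 4.17 ± 0.08 and 5.01 ± 0.08 against 4.61 ± 0.09. Elavl3, a neuronal RNA-binding protein of the same list, went the other way (0.71, limma adjusted p = 0.561). Snap25, a SNARE protein of vesicle fusion, was at 2.65, 2.62, 2.53 and 2.68 in control pools and at 3.41, 3.03, 3.21 and 3.27 in Kir2.1 pools (0.61, limma adjusted p = 0.558). Atp1b1, the beta subunit of the sodium-potassium pump, was at -0.23, 0.60, 0.27 and 0.48 in control pools and at -0.75, -0.49, -0.89 and -0.76 in Kir2.1 pools (-1.0, limma adjusted p = 0.382). Of the immature genes 17 of 24 differences were negative (70.8%) with a median of -0.23, and of the maturing genes 17 of 29 (58.6%) with a median of -0.34, against 55.63% and -0.10 over all named genes. Of the 29 maturing genes 9 had an unadjusted p under 0.05 (against 6.07% of all named genes).

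Genes of excitability were described by their roles. Among 18 ion pumps, exchangers and chloride transporters, which restore ionic gradients, 14 differences were negative (77.8%, against 55.63% of all named genes) with a median of -0.56 (against -0.10), and 2 genes were lower in all pools (11.1%, against 3.22%). Beside Atp1b1 this was Slc12a5, the chloride exporter KCC2 (1.32 ± 0.20 against 0.84 ± 0.14, limma adjusted p = 0.698). Of 22 voltage-gated potassium and HCN channel genes, 1 was higher in all pools (4.55%, against 2.68% of all named genes) and 0 lower. Kcnip2, the Kv4 channel partner KChIP2, was at -4.89, -4.19, -5.10 and -4.32 in control pools and at -2.86, -2.59, -3.13 and -2.81 in Kir2.1 pools (1.78, limma adjusted p = 0.599), and at P6 it rose by 3.83 (limma adjusted p = 0.0103). Of 18 sodium and calcium channel genes 2 were lower (11.1%, against 3.22% of all named genes) and 0 higher. Cacna2d1, the alpha2delta subunit that brings calcium channels to the membrane, was among the lower ones, at -2.24 ± 0.47 against -3.92 ± 0.47 (limma adjusted p = 0.613). The 10 tested inward rectifier and two-pore potassium channel genes gave 0 in either direction.

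On the synaptic side, 2 of 18 glutamate receptor genes were lower in all pools (11.1%, against 3.22% of all named genes) and 0 were higher. Grm7, a presynaptic metabotropic receptor, was at -3.14, -3.31, -3.79 and -3.89 in control pools and at -5.96, -8.16, -5.15 and -9.48 in Kir2.1 pools (-3.65, limma adjusted p = 0.406). Of 16 GABA and glycine receptor genes 0 were apart in either direction. Of 37 presynaptic genes 2 were higher (5.41%) and 1 lower (2.7%), against 2.68% and 3.22% of all named genes. Among 29 postsynaptic and adhesion genes 1 was higher (3.45%) and 1 lower (3.45%), near the 2.68% and 3.22% of all named genes. L1cam, an adhesion molecule of axons, was the higher one (-6.33 ± 1.25 against -3.23 ± 1.16, limma adjusted p = 0.423). Lrrtm1, a postsynaptic partner of neurexins, was the lower one (-1.61, limma adjusted p = 0.704). Of 36 guidance genes 3 were higher (8.33%, against 2.68%) and 1 lower (2.78%, against 3.22%). Efna3, an ephrin and one of the higher ones, was at -5.26 ± 0.10 against -3.91 ± 0.54 (limma adjusted p = 0.433).

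Genes that follow neuronal activity gave no common direction. Immediate early genes are transcribed within minutes of calcium entry. Of 13 tested, 1 was higher in all pools (7.69%, against 2.68% of all named genes) and 0 lower (against 3.22%). Ier5 was that gene, at -6.80, -8.73, -6.47 and -5.33 in control pools and -3.32, -2.61, -2.28 and -2.92 in Kir2.1 pools (4.05, limma adjusted p = 0.513), and its other probe had the same sign. Fos was detected in 0 control pools and 1 Kir2.1 pool, and its difference of 0.84 turned to -0.73 without that pool, Kir2.1 pool 4. Arc was detected in 1 control and 2 Kir2.1 pools, and its difference of 0.71 turned to -0.32 without Kir2.1 pool 3. Npas4 was detected in 2 pools of each group, from -7.92 to -0.48 in the Kir2.1 pools (2.46, limma adjusted p = 0.871). At this detection no direction can be read for Fos, Arc or Npas4. Of 19 late activity response genes, Scg2 was the one apart (5.26% lower, against 3.22% of all named genes). The list's median of 0.07 turned negative under quantile normalization (-0.12) and normexp background correction (-0.06).

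BMP and activin signalling acts through ligands, paired receptors and SMAD proteins, and also through LIM kinases that bind the tail of the type II receptor Bmpr2. Of 9 tested ligands 1 was higher in all pools, Inhbe (11.1%, against 2.68% of all named genes), and 0 lower (against 3.22%). Of 11 receptors 0 were apart, with 8 of the differences negative (72.7%, against 55.63% of all named genes). Without Kir2.1 pool 3, 3 ligands were higher (33.3%, against 4.2% of all named genes) and 0 lower. By the same count 2 receptors were lower (18.2%, against 6.23%) and 0 higher. Bmpr2 was detected in 1 control and 2 Kir2.1 pools and differed by 1.11 (SE 1.59, limma adjusted p = 0.95), which leaves its direction unmeasured here. Among 14 transducers, inhibitors and targets, 2 were higher (14.3%) and 2 lower (14.3%) in all pools, against 2.68% and 3.22% of all named genes. Id2 and, to complete the count, Limk1 (-0.46) were the lower ones. Limk2, a LIM kinase that inactivates cofilin, was higher with -5.47 ± 0.35 against -4.76 ± 0.40 (limma adjusted p = 0.804), as was Smad4, the shared SMAD (0.70, limma adjusted p = 0.855). The LIM kinases thus lay on opposite sides, neither past the threshold.

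Markers of other cells were present in both groups. Of 21 interneuron markers, 7 were detected in all 8 pools, and the mean level of the tested ones was -5.87 to -4.72 in control and -5.28 to -4.56 in Kir2.1 pools. Of the 15 tested, 1 was higher in all pools (6.67%, against 2.68% of all named genes) and 0 lower (against 3.22%). Meis2 was that gene, at -4.68 ± 0.98 against -2.41 ± 0.71 (limma adjusted p = 0.37). Gad2, which makes GABA, was detected in 1 control pool and all 4 Kir2.1 pools, and Gad1 in 1 and 3, with limma adjusted p of 0.599 and 0.823. Of the other defining markers, Slc32a1 and Th were detected in all 8 pools, with differences of -0.02 and -0.22, Dlx2 and Dlx5 in 3 pools of each group, and Ddc, Calb1, Dlx1 and Pax6 in none. Over the 15 tested, 9 differences were negative with a median of -0.14. Of 15 astrocyte and radial glia markers 7 were detected in all pools. Fabp7, a fatty acid binding protein shared with ensheathing cells, was bright in both groups (0.996 ± 0.68 against 2.14 ± 0.67, limma adjusted p = 0.739). Over the 13 tested, 7 differences were positive and 6 negative, with a median of 0.02. Sox2 (-2.47) and Hes5 (-1.70) were lower, whereas Gfap (2.49) and Slc1a3 (1.43) were higher. Of 12 microglia markers 4 were detected throughout and C1qa, P2ry12, Trem2 and Ctss in none, while Aif1 was detected in 1 control and 4 Kir2.1 pools (limma adjusted p = 0.744) and C1qb differed by 0.78 with overlapping pools. Of the 7 tested microglia markers 4 were lower, C1qc (-1.27), Tyrobp (-1.05), Csf1r (-0.49) and Fcrls (-0.45), and the median was -0.45.

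The remaining marker lists also overlapped. Of 12 oligodendrocyte lineage markers 8 were detected in all pools, with mean levels of -5.31 to -4.49 in control and -5.23 to -4.10 in Kir2.1 pools. The ensheathing cell list ranged from -5.32 to -2.74 and from -4.28 to -2.17, and the microglia list from -6.63 to -4.98 and from -6.11 to -5.31. Vascular and blood cell markers ranged from -7.15 to -6.89 and from -7.42 to -5.64; 7 of the 8 tested differences were positive (87.5%, against 44.4% of all named genes) with a median of 0.78, which was 0.10 with normexp. Olfactory sensory neuron markers ranged from -4.98 to -3.60 and from -4.59 to -3.72. None of the 6 lists other than those of mitral cells and interneurons had a gene apart in either direction. The part of any other cell type in the differences above was not tested.

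Probes without a gene name leaned to one side. A probe is unnamed here where no RefSeq accession gave it a symbol, so some of them carry an Ensembl transcript name. Of 9035 such probes tested, 537 had all Kir2.1 pools above all control pools (5.94%) and 187 all below (2.07%), the reverse of the balance among named genes. A_55_P1978905 was the 1 probe that passed with all 16 arrays (0.0111%), at -1.74, -1.16, -0.89 and -1.28 in control pools and 1.10, 0.87, 1.00 and 0.63 in Kir2.1 pools (2.17, limma adjusted p = 0.0361). This probe carries an Ensembl transcript name, which was not matched to a gene here. It did not differ in the same way at P6, where its difference was -0.36 (limma adjusted p = 0.55). Its interaction of age and Kir2.1 passed (-2.53, limma adjusted p = 0.0352). With the P3 arrays alone 10 unnamed probes passed (0.111%). Of these, A_66_P105319 was the only lower one, at -4.07 ± 0.55 against -9.35 ± 0.45 (limma on the P3 arrays, adjusted p = 0.00875). It too carries an Ensembl transcript name. A set of 9 bright unnamed probes, chosen after their values were seen, varied together (correlation over 0.95 with A_66_P140076 over the 16 arrays), and no named gene did so. Their differences were 1.49 to 2.07 with SDs between pools of only 0.05 to 0.20. With the P3 arrays alone 8 of the 9 passed, and these are 8 of the 10 counted above. With all 16 arrays 0 did (limma adjusted p from 0.0585 to 0.248). The set was built on A_66_P140076, itself 1 of those 10, so that its members are higher is not a separate result. At P6 all 9 were higher as well, by 0.78 to 1.03, and did not pass (limma adjusted p from 0.108 to 0.224). The deposited tables give no gene for these probes.

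**Figure D5:**
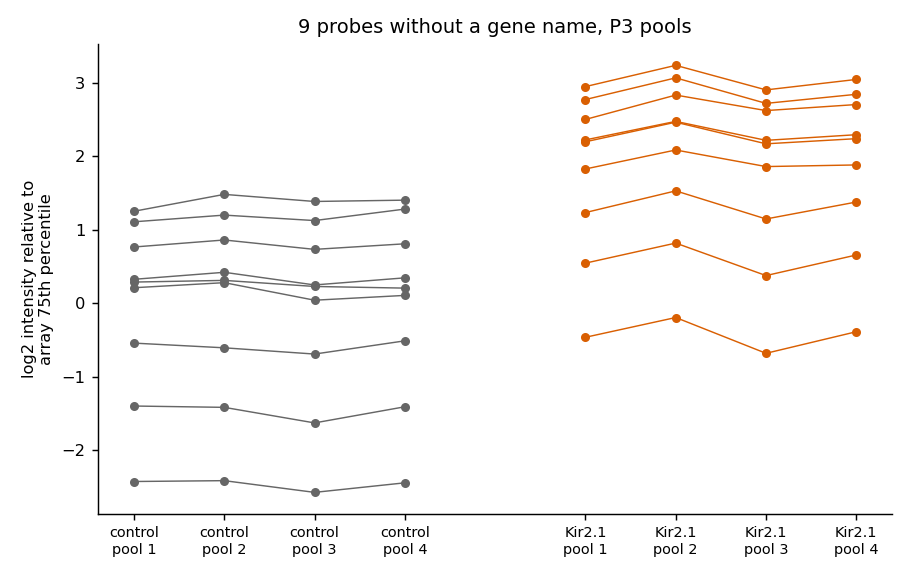
Log2 intensity, relative to the 75th percentile of each array, of 9 probes without a gene name in the 4 control (grey) and 4 Kir2.1 (orange) pools at P3; each line joins the values of 1 probe across pools, which have no order. Every probe is higher in all Kir2.1 pools, by 1.49 to 2.07, and the lines run nearly parallel. The probes were chosen after their values were seen, by their correlation with 1 higher probe.

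The difference between the ages was tested directly. In the interaction of age and Kir2.1, 9 named genes passed (0.0748% of 12035), 7 with a higher difference at P6 than at P3 and 2 with a lower one, and 6 of the 9 had a negative difference at P3. Of the genes described above, Smo was among them: its difference was 0.82 at P3 and -0.82 at P6, a change of -1.64 (limma adjusted p = 0.0362). Pipox (-5.66, limma adjusted p = 0.0522) and Fkbp2 (-2.35, limma adjusted p = 0.0688), higher with Kir2.1 at P3 and lower at P6, came closest among the others. Of the 20 genes of lowest p with pools apart at P3, 15 had the same sign at P6, 6 of the 10 higher and 9 of the 10 lower ones. At P6 5 of the 20 passed with limma, 4 of them with the same sign, where 1.8% of named genes passed. The share of all named genes with the same sign at both ages was not counted. Among genes described from the lists, Kcnip2 rose at P6 too, but Snap25 (-0.61), Elavl3 (-0.59) and Meis2 (-2.13) were lower with Kir2.1 there. Ier5 differed by 0.21 at P6. Snap25, Elavl3, Meis2 and Ier5 did not pass at P6 with limma. The P6 arrays lay on another slide, and in this comparison the effect of age cannot be told apart from that of the slide.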

How the data were processed

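Each P3 pool was hybridised to a 1-colour Agilent array and read with Agilent Feature Extraction 10.7.3.1, per the submitters' processing notes. The deposited scanner tables give background-subtracted intensity per spot; the deposited value table gives the same signal as a ratio to the array's 75th percentile. Neither an alignment nor a genome build enters the values. Spots of controls and those marked as outliers were not used, and each probe's remaining spots were averaged. Of 55681 probes 83 had only outlier spots on an array. Of 28079 probes with a RefSeq accession 26546 matched a symbol, for 20124 genes, and 29052 probes stayed unnamed. Log2 values were centred on the 75th percentile over the 12103 probes well above background on all 16 arrays. Features above background on at least 4 of 16 arrays were tested, with the probe of the highest mean for a gene. All 16 arrays were fitted with limma 3.58.1 (lmFit, eBayes; R 4.3.3; 12 residual and 1.64 prior degrees of freedom), with adjusted p-values over 21070 features. The scripts were tested on simulated data. No gene spot was saturated, and the number of arrays limits the precision.

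At-least folds set the brighter mean against, per dim array, the higher of the lowest signal well above background and the probe's own. They depend on the background subtraction, and normexp gave smaller differences. Named genes were those past the threshold in the joint or the P3 fit; the 10 higher and 10 lower of lowest p with pools apart; up to 5 a direction detected in one group only or bright in all pools; the members of lists past the threshold or the 3 of lowest p; and Kcnj2, Cdhr1, Bmpr2, Fos, Arc and Npas4. Members and lists were chosen with earlier results of these data known. Tested alternatives were the P3 arrays alone, a replicate block, other scalings, background correction, filters, probe rules, variance models, array weights and leaving out each pool. Normexp used median signals. Same-numbered pools did not deviate together (correlations of 0.0029 to 0.031), so the numbers were not taken as pairs. The results of a few genes and of 2 gene lists are not reported here.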

Additional observations from a re-analysis of the deposited data

Results flagged for a closer look

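Within-group outliers were looked for by the gap of the highest or lowest of 4 pools to its neighbour, as a share of the group's range, against Dixon's critical value. Chance marks about 1 in 20 groups, and 12 of 136 were marked. In control pools these were Osbpl9 (pool 4 at -6.75), Pcdh7 (pool 2 at -6.33), Pipox (pool 4 at -8.93), Rpl21 (pool 4 at -9.22), Col3a1 (pool 4 at -8.11), Aif1 (pool 2 at -5.43), Bmpr2 (pool 3 at -5.88) and Arc (pool 3 at -4.68). In Kir2.1 pools they were Ntng1 (pool 2 at -3.62), Reln (pool 2 at -2.64), Cog8 (pool 3 at -3.29) and Fos (pool 4 at -3.08). Control pool 4 was the lowest pool for Rpl21 and the highest of its group for Osbpl9, Pipox and Col3a1. For Reln the gap was small in size, since its other 3 Kir2.1 pools lay between -2.40 and -2.36. Smo was noted because its response to Kir2.1 differed between the ages, by -1.64 from P3 to P6 (limma interaction, adjusted p = 0.0362); all 4 pools were higher at P3, and the difference at P6 was -0.82.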

How the results depend on the processing

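For Kir2.1 against control at P3, 1 named gene passed with all 16 arrays, 8 with the P3 arrays alone, 9 with these and without Kir2.1 pool 3, 7 with array weights, 3 with a filter at 8 of 16 arrays and 0 with a filter at all 8 P3 arrays, which leaves out Scg2 (limma, 482 at an unadjusted p under 0.05). Leaving out 1 pool at a time gave 0 to 3: 0 without P3 control pool 1 or 2 or P3 Kir2.1 pool 3 or 4 (limma, 593 to 783 at an unadjusted p under 0.05), 3 without P3 Kir2.1 pool 1, and 2 without P6 control pool 4 or P6 Kir2.1 pool 4. With the replicate number as a block 0 passed, with all arrays or, added after the data were seen, with the P3 arrays alone (limma, 733 and 998 at an unadjusted p under 0.05; Scg2 adjusted p = 0.108 and 0.371); same-numbered pools did not deviate together, so this is no test of pairs. The count for the interaction, 9, was 5 with the replicate block, 34 with normexp (added after the data were seen), 15 with a filter at 8 of 16 arrays and 58 with trend and robust variance; leaving out 1 pool gave 4 to 23. It was 23 without P6 control pool 2, 14 without P6 control pool 1, 4 without P3 control pool 1 or 2 or P3 Kir2.1 pool 2, and 5 without P3 control pool 3, P3 Kir2.1 pool 4 or P6 control pool 4. Over 68 genes and 2065 gene values under other settings, 5 changed sign. These were Pcdh7 with the median over its probes (-0.46), Fos without Kir2.1 pool 4 (-0.73) and Arc without Kir2.1 pool 3 (-0.32, in both fits) and with normexp (-0.011); leaving out 1 pool at a time moved Fos between -0.73 and 1.43 and Arc between -0.32 and 1.87. The cause was not tested. Of 111 list medians under other scalings 106 moved by less than their spread; the 5 others were late activity genes under quantile normalization (-0.12) and normexp (-0.06), and under normexp vascular markers (0.10), immediate early genes (0.24) and glutamate receptors (-0.09). Probes near background carry the large differences and the wide spread.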
